A study of Mus musculus with 8 samples.

Results

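A set of 9 genes of iron storage, uptake, export and sensing was followed in inguinal white adipose tissue (iWAT), the fat depot under the skin of the groin in which heat-producing beige adipocytes form during cold exposure. They were taken by symbol and not by their values, from a list made for this purpose with earlier results of these data known. All 9 were found among the 17264 genes with a value in any library. Y1cKO mice were Ythdf1 flox/flox and carried Adipoq-Cre, which deletes the floxed exon 4 of Ythdf1 in adipocytes and leaves it in the other cells of the depot. Y1CTL mice were Ythdf1 flox/flox without Cre. All mice of both groups were C57BL/6 males 9 weeks old that had spent 7 days in the cold at 4 °C, and no library came from warm tissue. Each genotype had 2 Ribo-seq libraries, which count ribosome-protected fragments, and 2 RNA-seq libraries, which count fragments of polyadenylated RNA. The lysed tissue was described as divided between the assays, but levels of some cell type markers differed between them, as given below. Levels are RPKM, reads scaled to the length of the gene and the depth of the library, taken over the coding sequence for Ribo-seq and over the whole transcript for RNA-seq. Nothing in the labels says whether the 2 libraries of a group came from separate mice, and the p-values measure only the spread between libraries. In whole tissue, fewer cells of a type and less RNA per cell cannot be told apart.

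Ferritin, a shell built of heavy (Fth1) and light (Ftl1) chains, stores iron inside cells. Transferrin (Trf) carries iron in the circulation, the transferrin receptor (Tfrc) takes it up, Slc11a2 (the divalent metal transporter) moves it across endosomal and plasma membranes, and ferroportin (Slc40a1) exports it. A pair of RNA-binding proteins, encoded by Aco1 and Ireb2, read iron shortage and bind hairpins called iron-responsive elements. A hairpin in the leader of an mRNA, as in both ferritin chains and in a ferroportin transcript, then blocks translation, while hairpins in the trailer, as in Tfrc and in some Slc11a2 transcripts, protect the mRNA from decay. Hmox1, heme oxygenase, frees iron from heme. Beige adipocytes are rich in mitochondria, whose respiratory chain needs iron-sulfur clusters and heme. YTHDF1, the protein whose gene was targeted in adipocytes, binds mRNA that carries N6-methyladenosine and is known to affect its translation.

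Depth ran between 7364523 and 11862838 reads in the Ribo-seq libraries. The Y1cKO RNA-seq libraries held 12211351 and 16429015 reads, against 3958284 and 4963613 in the Y1CTL RNA-seq libraries. Ythdf1 itself, over its whole transcript and not the deleted exon alone, had 7.17 and 7.98 RPKM in Y1cKO, against 8.01 and 11.5 RPKM in Y1CTL by RNA-seq. Its footprints over the coding sequence gave 12.7 and 15.7 RPKM in Y1cKO, against 17.3 and 16.0 RPKM in Y1CTL, so that whole tissue kept most of the signal. The adipocyte markers had RNA-seq medians of 648 and 704 RPKM in Y1cKO, against 552 and 313 RPKM in Y1CTL, and none was at 0. Their Ribo-seq medians were 1346 and 1070 RPKM in Y1cKO, against 1181 and 1158 RPKM in Y1CTL, which overlapped. The part of adipocyte content in the RNA-seq changes was not tested. Muscle markers stood at a median of 24.4 RPKM in Y1cKO RNA-seq replicate 1, against 0.010 RPKM or less in the other RNA-seq libraries. Their median was 0.50 RPKM or less in each Ribo-seq library. Lymphocyte markers stood at 16.8 RPKM in Y1CTL RNA-seq replicate 2, against 0.24 RPKM or less in the other RNA-seq libraries. By Ribo-seq they stood at 63.1 and 70.0 RPKM in Y1cKO, against 62.0 and 53.6 RPKM in Y1CTL. The assays thus differed in these marker levels, and the part of tissue content in the TE values was not tested. The part of Y1cKO RNA-seq replicate 1 and Y1CTL RNA-seq replicate 2 in the results was not tested beyond leaving each out in turn.

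None of the 9 genes passed the test between genotypes in either assay or in translational efficiency (TE), the Ribo-seq level over the RNA-seq level (limma, adjusted p under 0.05, with 0% of all genes called in each comparison). By Ribo-seq 2 of 9, Trf and Hmox1, had an unadjusted p under 0.05, where 2.75% of all genes did. By RNA-seq 2 of 9, Ftl1 and Slc11a2, did, where 11.8% of all genes did, and for TE 1 of 9, Ftl1, where 8.66% did. A second tool, limma-voom on the reads, also called 0 genes in each comparison, and gave an unadjusted p under 0.05 for 2 of the 9 by Ribo-seq, 3 by RNA-seq and 1 for TE. Both Y1cKO libraries lay above both Y1CTL libraries for 1 gene and below them for 2 by Ribo-seq, where 15.4% of all genes were above, 14.1% below and 29.5% in either direction. By RNA-seq they lay above for 3 genes and below for 1, where 36.9% of all genes were above, 10.7% below and 47.6% in either direction, so that 3 of 9 and 4 of 9 without overlap are shares close to those of all genes. The log2 change of the median gene was 0.01 by Ribo-seq, 0.17 by RNA-seq and -0.17 for TE, so that main changes by RNA-seq and TE are also given with the libraries of an assay scaled to the same median. What did pass a test was the TE level, that is, a gene's log2 TE after each library was set to a median level of 0, on which scale the median TE level of all genes was 0.11. It passed for 7 of 9 genes, 5 higher and 2 lower, where 73.2% of all genes passed, 39.6% higher and 33.6% lower, so that the share of calls is near that of all genes and the sizes and ranks carry the description.

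**Figure D1:**
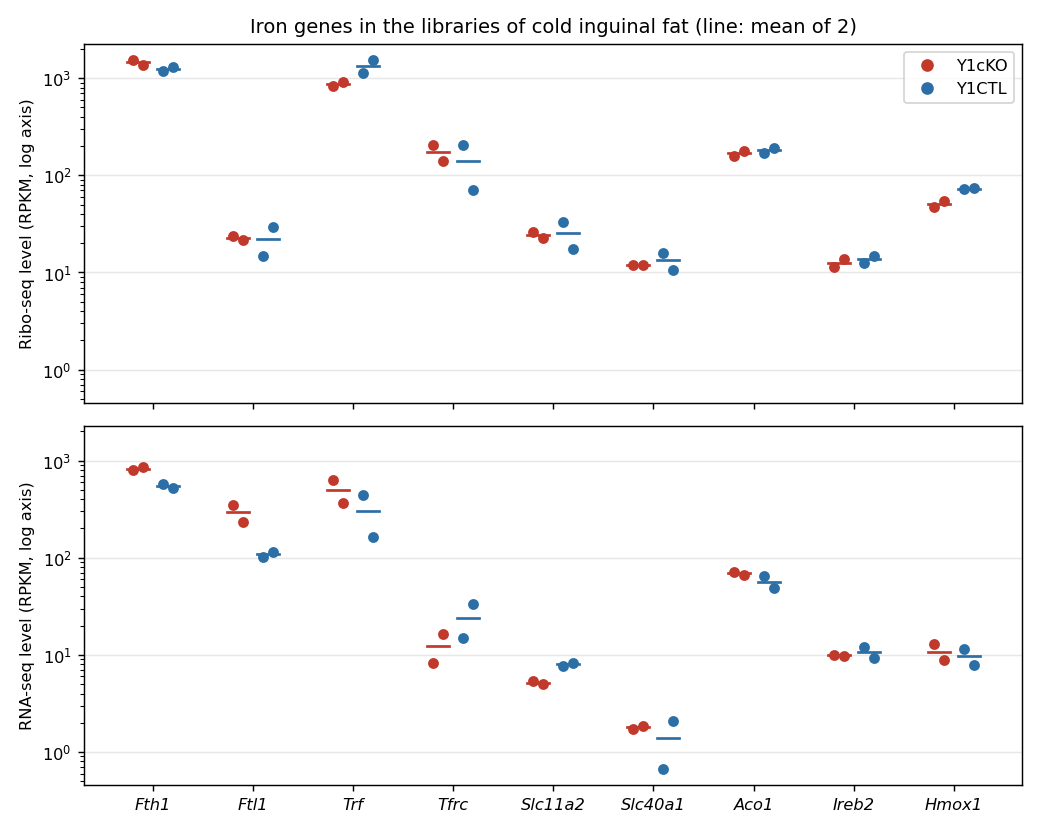
Level of each gene in each library, as RPKM on a log axis, by Ribo-seq (top) and RNA-seq (bottom), with Y1cKO (red) left of Y1CTL (blue), points for the 2 libraries and a line for their mean. Ftl1 lay near Slc11a2 by Ribo-seq and between Trf and Aco1 by RNA-seq, and both Y1cKO points of Ftl1 were above both Y1CTL points by RNA-seq only.

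The heavy chain Fth1 was among the most abundant genes of the tissue, the 99th by Ribo-seq and the 37th by RNA-seq. Its Ribo-seq level was 1525 and 1383 RPKM in Y1cKO, against 1193 and 1310 RPKM in Y1CTL. Its RNA-seq level was 802 and 856 RPKM in Y1cKO, against 575 and 528 RPKM in Y1CTL. Both Y1cKO libraries were above both Y1CTL libraries in each assay. The mean was 829 ± 38.3 RPKM in Y1cKO and 551 ± 33.9 RPKM in Y1CTL by RNA-seq (SD, n = 2 each), a log2 change of 0.59 (limma, standard error 0.27, adjusted p = 0.453), or 0.43 with scaled libraries. By Ribo-seq the log2 change was 0.22 (limma, standard error 0.19, adjusted p = 1.00), and for TE it was -0.37 (limma, adjusted p = 0.648), or -0.22 with scaled libraries.

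The light chain Ftl1 combined few ribosome footprints with a high transcript level. Ribo-seq gave 23.7 and 21.6 RPKM in Y1cKO, against 14.9 and 29.4 RPKM in Y1CTL, and here the groups overlapped. RNA-seq gave 352 and 233 RPKM in Y1cKO, against 103 and 114 RPKM in Y1CTL, with no overlap. The RNA-seq mean was 293 ± 84.0 RPKM in Y1cKO and 109 ± 8.23 RPKM in Y1CTL (SD, n = 2 each), 2.69 times as high, and the log2 change of 1.40 (standard error 0.26) was the 113th highest of 12435 genes. It had an unadjusted p of 0.00208 and an adjusted p of 0.401 from limma, was 1.23 with scaled libraries and stayed between 1.10 and 1.69 with any 1 library left out. Ribo-seq gave a log2 change of 0.11 (limma, adjusted p = 1.00), which was -0.37 without Y1CTL Ribo-seq replicate 1 and 0.59 without Y1CTL Ribo-seq replicate 2. The TE change was -1.29 (limma, standard error 0.45, unadjusted p = 0.0235, adjusted p = 0.563), or -1.14 with scaled libraries, and ran between -1.77 without Y1CTL Ribo-seq replicate 1 and -0.81 without Y1CTL Ribo-seq replicate 2.

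The TE level of Ftl1 was 14.1-fold below the zero of the scale (log2 -3.82, standard error 0.22, adjusted p = 5.56e-06 from limma), the 25th lowest of 11792 genes. It was -4.39 in Y1cKO and -3.25 in Y1CTL. Since it is not certain which Ribo-seq library shares its tissue with which RNA-seq library, all 4 pairings within each genotype were computed. They gave -4.74 to -4.04 in Y1cKO and -3.76 to -2.75 in Y1CTL. The 4 pairings of a genotype reuse the same 2 libraries of each assay and are not independent values. The share of all genes with pairings apart was not computed, and 65.3% of all genes had a negative TE change. The Ribo-seq values rested on 124 and 107 reads in Y1cKO and on 97 and 119 reads in Y1CTL. The values are uncertain in another way, because the mouse genome holds near-identical copies of Ftl1, and how reads with several matches were counted was not stated in the sources read here. The copy Ftl1-ps1 had 0 and 0 RPKM in Y1cKO and 0.154 and 0 RPKM in Y1CTL by Ribo-seq, and 0.859 RPKM or less in each RNA-seq library. The part of shared reads in the low Ribo-seq level was not tested.

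Ribo-seq and RNA-seq levels of Fth1 were, in contrast, close to the median ratio of all genes, with a TE level of 0.16 (limma, standard error 0.15, adjusted p = 0.366) and 51.4% of genes lower. This value depends on the transcript model behind the RNA-seq RPKM. The deposited model of Fth1 has a leader of 795 bases, 53.2% of the transcript and longer than those of 97.5% of genes, whereas Ftl1 has a leader of 253 bases. With RNA-seq levels of all genes taken over coding sequence and trailer only, a choice made after the data were seen, the TE level of Fth1 was -0.82 (limma, adjusted p = 0.00300) with 23.7% of genes lower. That of Ftl1 was then -4.14, with 0.109% of genes lower.

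RefSeq (GRCm38.p6) lists 2 start sites for Fth1 and 1 for Ftl1. Windows of 250 bases before to 50 bases after the start were at hand for 5 of the 9 genes and were searched for the letters TATAA, the core of the TATA box, on both strands. Both ferritin genes held it on the sense strand after an annotated start, for Fth1 at 1 of its 2 starts. The windows of Tfrc, Aco1 and Ireb2 did not hold it there. Of the 32851 windows of the genome, 1.74% held it on the sense strand after the start, and 24.9% held it anywhere on either strand. These are shares of windows and not of genes, and matches elsewhere in the windows of the 9 genes are not given. The stretches around it are shown because the ferritin chains were the 2 storage genes with higher RNA-seq levels in both Y1cKO libraries, and because the place of the start bears on the leader lengths above. TATAA is in capitals and begins, with the start as base 1, at base 27 in Fth1 (plus strand, chr19:9982659-9982688) and at base 18 in Ftl1 (minus strand, chr7:45459853-45459882).
Fth1: cgcaggatcccgcTATAAgtgcggcccgct
Ftl1: agggtcaacatgcTATAAaaggagcgctcc
A match of letters is a description and not a binding site, and no iron-responsive element was searched for.

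**Figure D2:**
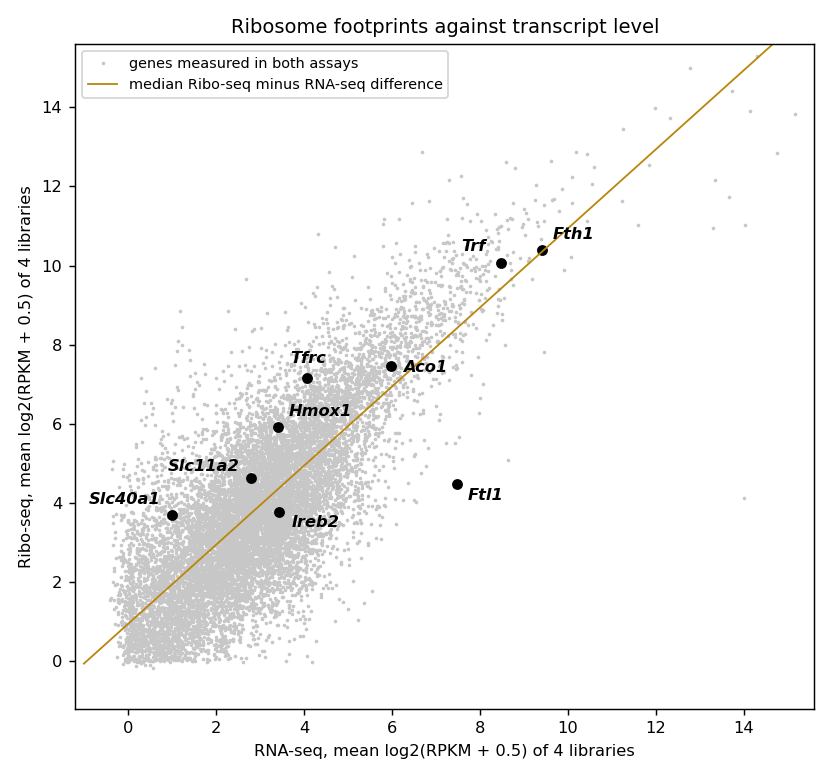
Mean Ribo-seq level against mean RNA-seq level of 11792 genes (grey) and the 9 iron genes (black), each as log2(RPKM + 0.5) over 4 libraries, with a line at the median difference of the assays. Fth1 lies on the line, Ftl1 far below it and Tfrc, Slc40a1 and Hmox1 above it.

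Tfrc, the receptor through which cells take up transferrin-bound iron, had a high ribosome density for its transcript level. Its footprints gave 206 and 140 RPKM in Y1cKO, against 206 and 71.4 RPKM in Y1CTL. Its transcript gave 8.27 and 16.5 RPKM in Y1cKO, against 14.8 and 33.5 RPKM in Y1CTL. The groups overlapped in both assays, and within Y1CTL the higher library was 2.89 times the lower by Ribo-seq and 2.26 times by RNA-seq. The Ribo-seq log2 change was 0.48 (limma, standard error 0.47, adjusted p = 1.00), and it rested on single libraries, since it was 1.24 (adjusted p = 0.0425) without Y1CTL Ribo-seq replicate 1 and -0.28 without Y1CTL Ribo-seq replicate 2. The RNA-seq log2 change was -0.91 (limma, standard error 0.47, adjusted p = 0.487), or -1.07 with scaled libraries, and was -0.33 without Y1CTL RNA-seq replicate 2 and -1.48 without Y1CTL RNA-seq replicate 1. The TE change of 1.38 had a standard error of 0.82 (limma, adjusted p = 0.606) and was 1.54 with scaled libraries. With 1 library left out it ran between 0.62 (without Y1CTL Ribo-seq replicate 2) and 2.15 (without Y1CTL Ribo-seq replicate 1). The TE level was 2.28 (limma, standard error 0.43, adjusted p = 0.00188), above 94.1% of genes, with 3.04 in Y1cKO and 1.51 in Y1CTL, and the pairings overlapped between genotypes.

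Transferrin, a secreted protein best known from liver, was the second most abundant of the 9 genes in both assays. By Ribo-seq Trf had 831 and 912 RPKM in Y1cKO, against 1124 and 1529 RPKM in Y1CTL, both Y1cKO libraries below both Y1CTL libraries. The RNA-seq values were 626 and 365 RPKM in Y1cKO, against 439 and 163 RPKM in Y1CTL, with overlap. Its mean Ribo-seq level was 871 ± 57.2 RPKM in Y1cKO and 1326 ± 287 RPKM in Y1CTL (SD, n = 2 each), with a log2 change of -0.59 (limma, standard error 0.21, unadjusted p = 0.0311, adjusted p = 1.00). RNA-seq pointed the other way with 0.83 (limma, standard error 0.53, adjusted p = 0.541), or 0.67 with scaled libraries, and was 0.12 without Y1CTL RNA-seq replicate 2 and 1.54 without Y1CTL RNA-seq replicate 1. The TE change was -1.42 (limma, standard error 0.66, adjusted p = 0.563), the 94th lowest of 11792 genes, and -1.27 with scaled libraries. It rested on the Y1CTL RNA-seq libraries, as it was -2.13 (limma, adjusted p = 0.0411) without replicate 1 and -0.71 (limma, adjusted p = 0.516) without replicate 2, fits in which the lone Y1CTL RNA-seq library is assumed to vary like the other groups. The TE level of Trf, 0.74, did not pass (limma, adjusted p = 0.0772).

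Slc11a2 and Slc40a1 carry iron itself across membranes, and their levels were lower than that of the transferrin receptor. The Ribo-seq values of Slc11a2 were 26.1 and 22.5 RPKM in Y1cKO, against 33.4 and 17.3 RPKM in Y1CTL. By RNA-seq it had 5.33 and 5.03 RPKM in Y1cKO, against 7.68 and 8.33 RPKM in Y1CTL. It was the single gene of the 9 with both Y1cKO libraries below both Y1CTL libraries by RNA-seq, while by Ribo-seq the groups overlapped. The RNA-seq log2 change was -0.58 (limma, standard error 0.20, unadjusted p = 0.0280, adjusted p = 0.402), -0.74 with scaled libraries and -0.64 to -0.53 with any 1 library left out. The Ribo-seq log2 change was 0.01 (standard error 0.30) and the TE change 0.59 (limma, adjusted p = 0.624), or 0.74 with scaled libraries, and 0.12 without Y1CTL Ribo-seq replicate 2.

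The exporter Slc40a1 had the lowest RNA-seq level of the 9 genes, and its RNA-seq values rested on few reads. Footprint levels were 11.9 and 12.0 RPKM in Y1cKO, against 16.0 and 10.7 RPKM in Y1CTL. Its transcript levels were 1.73 and 1.86 RPKM in Y1cKO (71 and 103 reads), against 0.675 and 2.09 RPKM in Y1CTL (9 and 35 reads). The exact Poisson interval (95%) of the value with 9 reads was 0.309 to 1.28 RPKM, which covers counting error only. The groups overlapped in both assays, and the log2 change was -0.13 by Ribo-seq (standard error 0.21) and 0.39 by RNA-seq (standard error 0.47), or 0.23 with scaled libraries. Its TE level of 1.87 (limma, adjusted p = 0.000380) was above that of 90.0% of genes. Slc11a2 had a TE level of 0.99 (limma, adjusted p = 0.00342), above 74.6% of genes.

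The iron sensors Aco1 and Ireb2 had no unadjusted p under 0.05 between genotypes. Aco1 encodes the cytosolic aconitase that turns into an RNA-binding protein when it loses its iron-sulfur cluster, and Ireb2 encodes the related protein that is degraded when iron is plentiful. By Ribo-seq Aco1 had 160 and 177 RPKM in Y1cKO, against 171 and 193 RPKM in Y1CTL. Aco1 transcripts gave 72.0 and 66.0 RPKM in Y1cKO, against 65.3 and 48.3 RPKM in Y1CTL. The Y1cKO libraries were above the Y1CTL libraries by RNA-seq by a small margin and overlapped with them by Ribo-seq, with log2 changes of -0.11 by Ribo-seq (limma, adjusted p = 1.00) and 0.29 by RNA-seq (limma, adjusted p = 0.583), or 0.13 with scaled libraries. Its TE change was -0.41 (limma, adjusted p = 0.614), or -0.25 with scaled libraries, and ran between -0.62 without Y1CTL RNA-seq replicate 1 and -0.19 without Y1CTL RNA-seq replicate 2. Ireb2 was far less abundant, with 11.3 and 13.9 RPKM in Y1cKO, against 12.6 and 14.7 RPKM in Y1CTL by Ribo-seq. Ireb2 transcripts gave 10.0 and 9.72 RPKM in Y1cKO, against 12.0 and 9.39 RPKM in Y1CTL. Its groups overlapped in both assays, and its log2 changes were -0.11 by Ribo-seq (standard error 0.18) and -0.10 by RNA-seq (standard error 0.20). The TE change of Ireb2, -0.01, had a standard error of 0.27 and turned to 0.14 with scaled libraries. The TE level separated the sensors, with 0.65 for Aco1 (limma, adjusted p = 0.00305) and -0.50 for Ireb2 (limma, adjusted p = 0.0111); the difference between these levels was not tested.

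Hmox1, the inducible enzyme that opens the heme ring, had the smallest unadjusted p of the 9 genes by Ribo-seq. Footprints of Hmox1 gave 46.7 and 53.9 RPKM in Y1cKO, against 72.6 and 73.5 RPKM in Y1CTL. Its transcript gave 12.9 and 8.77 RPKM in Y1cKO, against 11.6 and 7.83 RPKM in Y1CTL. Both Y1cKO libraries were below both Y1CTL libraries by Ribo-seq, while the RNA-seq values of the genotypes overlapped. The Ribo-seq mean was 50.3 ± 5.08 RPKM in Y1cKO and 73.0 ± 0.582 RPKM in Y1CTL (SD, n = 2 each). The log2 change was -0.54 (limma, standard error 0.14, unadjusted p = 0.00752, adjusted p = 1.00) and -0.64 to -0.44 with any 1 library left out, and 1.71% of genes had a lower one. The RNA-seq change was 0.15 (standard error 0.29), or -0.01 with scaled libraries, and the TE change was -0.69 (limma, adjusted p = 0.563), or -0.53 with scaled libraries, and -0.42 without Y1CTL RNA-seq replicate 2. Its TE level of 1.70 (limma, adjusted p = 5.95e-05) was above that of 87.9% of genes. Macrophages are a known site of Hmox1 expression, and the macrophage markers had Ribo-seq medians of 98.5 and 110 RPKM in Y1cKO, against 87.4 and 121 RPKM in Y1CTL, which overlapped. Their summed Ribo-seq levels were 3765 and 4250.4 RPKM in Y1cKO, against 3880 and 3883 RPKM in Y1CTL, and none of the 12 was at 0 by Ribo-seq. By RNA-seq their medians were lower, from 7.81 RPKM in Y1cKO replicate 2 to 10.6 RPKM in Y1cKO replicate 1, with Y1CTL between these. Like Hmox1, the macrophage markers thus had a higher median RPKM by Ribo-seq than by RNA-seq. This was not particular to them. Each Ribo-seq median was above each RNA-seq median also for the adipocyte, beige, progenitor and lymphocyte markers. It was not so for the endothelial, muscle and erythroid markers. The part of macrophage content in the Hmox1 values, its TE level included, was not tested.

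**Figure D3:**
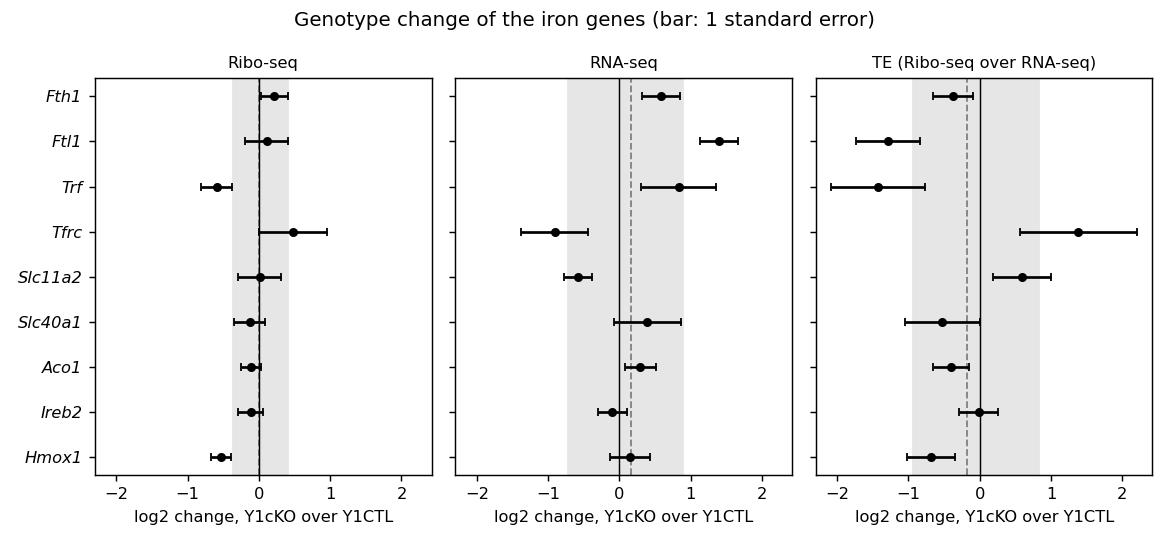
Log2 change of Y1cKO over Y1CTL with 1 standard error for each gene by Ribo-seq, RNA-seq and TE, with the range of the middle 90% of all genes (grey) and their median (dashed). By Ribo-seq Trf and Hmox1 lie below the grey range and Tfrc above it, by RNA-seq Ftl1 lies above it and Tfrc below it, and Ftl1, Trf and Tfrc lie outside it for TE, none with an adjusted p under 0.05.

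Ordered by level, the 9 genes formed steps. By Ribo-seq Fth1 and Trf overlapped at the top, with 831 to 1529 RPKM between them, and lay above Aco1 and Tfrc, which overlapped each other. Tfrc overlapped Hmox1 through its lowest library, Slc11a2 overlapped Ftl1, and Ireb2 overlapped Slc40a1 at the bottom, with 10.7 to 16.0 RPKM between them. By RNA-seq the order was Fth1, Trf, Ftl1, Aco1, Tfrc, Hmox1, Ireb2, Slc11a2 and Slc40a1. Neighbours overlapped for Fth1 and Trf, Trf and Ftl1, Tfrc and Hmox1, and Hmox1 and Ireb2, and the other neighbours did not. Ftl1 moved most between the orders, as its RNA-seq libraries lay above all those of Aco1 and its Ribo-seq libraries below all those of Aco1 and Hmox1.

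The TE levels ran between -3.82 and 2.28, with Tfrc highest, then Slc40a1, Hmox1, Slc11a2, Trf, Aco1, Fth1, Ireb2 and Ftl1. Of the genes known for a hairpin in the leader, Ftl1 was at the low end, Fth1 near the median of all genes and Slc40a1 at the high end. Of those known for hairpins in the trailer, Tfrc and Slc11a2 were both above that median. The signs and calls are relative to the median level of each library, and Ireb2 had a ratio above 1 in RPKM itself, 1.28 in both genotypes.

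**Figure D4:**
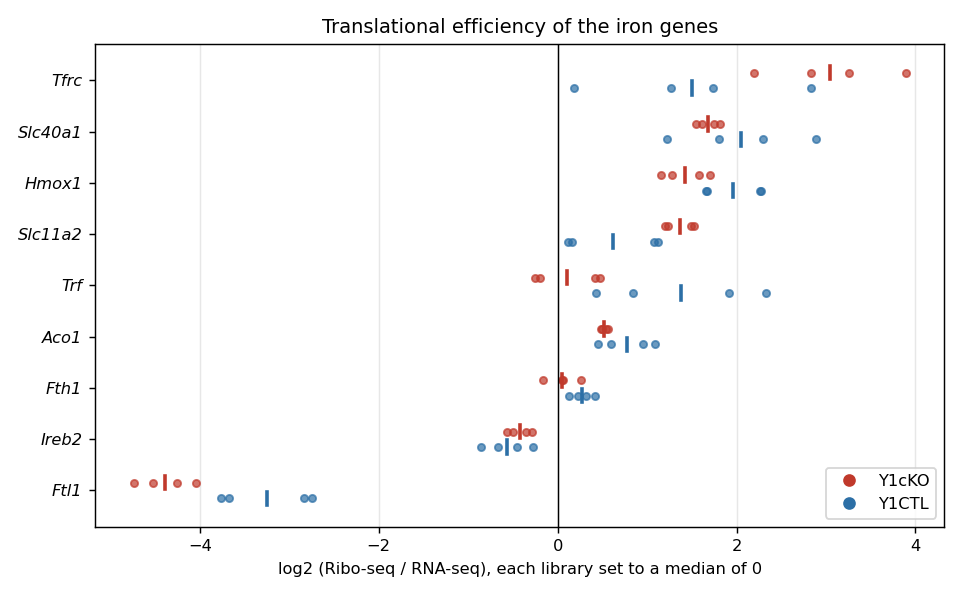
TE level of each gene as log2(Ribo-seq/RNA-seq), each library set to a median of 0, with Y1cKO (red) above Y1CTL (blue), a point for each of the 4 pairings of libraries within a genotype and a bar for their mean. Ftl1 lies between -4.74 and -2.75, and the Y1CTL pairings of Tfrc spread from 0.19 to 2.83.

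The libraries differed in their beige adipocyte markers, and Tfrc followed them. The median of 8 such markers, among them Ucp1, Cidea and Cox8b, was 1125 and 877 RPKM in Y1cKO, against 1185 and 358 RPKM in Y1CTL by Ribo-seq. By RNA-seq it was 26.7 and 82.5 RPKM in Y1cKO, against 80.4 and 175 RPKM in Y1CTL, and no marker was at 0 in any library. The summed level of the 8 was 421 and 1423 RPKM in Y1cKO, against 1532 and 2851 RPKM in Y1CTL by RNA-seq. Tfrc had the same order of libraries as this median in each assay, and Trf had the reverse order by RNA-seq. Within each genotype, replicate 1 had the higher median of the 2 by Ribo-seq and the lower by RNA-seq. Each Ribo-seq median of these markers was above each RNA-seq median, as were the Tfrc levels. The part of beige adipocyte content in the Tfrc and Trf values, their TE levels included, was not tested.

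**Figure D5:**
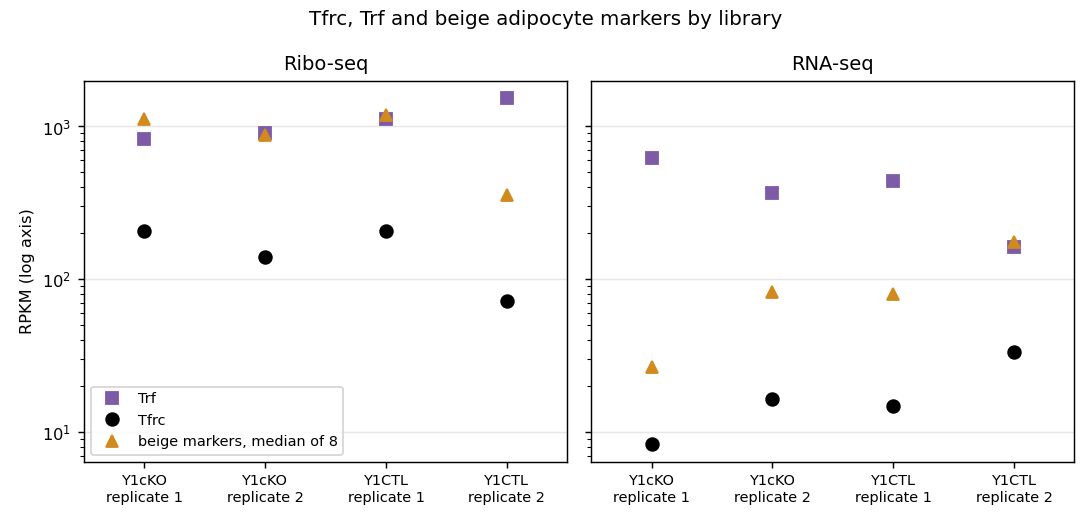
RPKM on a log axis of Trf (squares), Tfrc (circles) and the median of 8 beige adipocyte markers (triangles) in each Ribo-seq library (left) and RNA-seq library (right), with Y1cKO left of Y1CTL. Y1CTL Ribo-seq replicate 2 is lowest and Y1CTL RNA-seq replicate 2 highest for both Tfrc and the markers.

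Genes with the pattern most like 3 of the 9 were sought among 11792 genes, by Pearson's r over the 8 libraries with each gene centred within each assay. Closest to Tfrc were Cox5a (r = 0.995) and Cox10 (0.994), a subunit and an assembly factor of cytochrome c oxidase, and Otop1 (0.992), a proton channel, and 158 genes had r above 0.9. Closest to Hmox1 were Cyp51 (0.987), an enzyme of cholesterol synthesis, Idh1 (0.977), the cytosolic isocitrate dehydrogenase, and Zfp608 (0.972), with 45 genes above 0.9. Closest to Fth1 were Prcc (0.996), Tcf15 (0.989) and Zfp358 (0.986), with 246 genes above 0.9. Among the 9 themselves, Trf and Aco1 had r = 0.96, Fth1 and Ftl1 0.84, Tfrc and Aco1 -0.90, and Tfrc and Trf -0.89. The points share libraries, depth and tissue content, and the values are descriptions.

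Other genes of iron handling were taken as lists, of which no gene passed the adjusted test between genotypes by limma. Of 18 genes of iron traffic tested by RNA-seq, 14 had a positive and 4 a negative change with a median of 0.28 (67.2% of all genes were positive), and 3 had an unadjusted p under 0.05, against 11.8% of all genes. These were the plasma ferroxidase Cp (ceruloplasmin) with 32.9 and 37.2 RPKM in Y1cKO, against 20.0 and 13.4 RPKM in Y1CTL (log2 change 1.07, adjusted p = 0.401 from limma), its membrane-bound relative Heph (1.00) and Fbxl5 (0.50), the ubiquitin ligase part that senses iron and marks the Ireb2 product for degradation. By Ribo-seq the 22 genes tested split into 11 and 11 with a median of 0.00. Cp had 141 and 162 RPKM in Y1cKO, against 126 and 151 RPKM in Y1CTL by Ribo-seq, and its TE change was -0.94 (limma, adjusted p = 0.563).

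The heme list showed a like split. By RNA-seq 16 of 19 genes had a positive change with a median of 0.36, where 67.2% of all genes were positive, and 3 had an unadjusted p under 0.05, where 11.8% of all genes did. They were the hemoglobin-binding Hp with 484 and 397 RPKM in Y1cKO, against 218 and 217 RPKM in Y1CTL (log2 change 1.01, adjusted p = 0.401 from limma), the scavenger receptor Lrp1 (0.93) and Alad (0.52), an enzyme of heme synthesis. By Ribo-seq 9 were positive and 10 negative, and 17 of 19 TE changes were negative with a median of -0.28, where 65.3% of all genes were negative. Erythroid markers, of which 8 of 10 were found and 1 (Alas2) is also in the heme list, had RNA-seq medians of 38.9 and 23.9 RPKM in Y1cKO, against 16.2 and 11.2 RPKM in Y1CTL. By Ribo-seq the medians of these markers were 8.35 and 10.8 RPKM in Y1cKO, against 19.5 and 9.29 RPKM in Y1CTL. Their summed RNA-seq levels were 899 and 585 RPKM in Y1cKO, against 616 and 276 RPKM in Y1CTL, Epb42 was at 0 in 1 library of each genotype, and their part in the heme genes was not tested. Hmox2, the constitutive heme oxygenase, had a TE level of 2.35 (limma, adjusted p = 5.49e-06), above that of 94.6% of genes.

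Genes of iron-sulfur cluster assembly split otherwise. Of 25 tested, 18 had a positive change by Ribo-seq (median 0.12), 11 by RNA-seq (median -0.15) and 16 for TE (median 0.15). Of all genes, 51.5% were positive by Ribo-seq, 67.2% by RNA-seq and 34.7% for TE. An unadjusted p under 0.05 from limma was found for 2 genes by Ribo-seq, both higher, where 2.75% of all genes had one. By RNA-seq it was found for 1 higher and 1 lower gene (11.8% of all genes), and for TE for 2 higher genes (8.66%). Iscu, the scaffold on which clusters are built, had 139 and 119 RPKM in Y1cKO, against 110 and 87.1 RPKM in Y1CTL by Ribo-seq. By RNA-seq Iscu had 32.1 and 36.7 RPKM in Y1cKO, against 41.8 and 42.3 RPKM in Y1CTL. Its TE change was 0.68 (unadjusted p = 0.0238, adjusted p = 0.563 from limma). Isca1, an assembly protein of mitochondria, had a still lower TE level than Ftl1, at -5.01 (limma, adjusted p = 7.73e-06), and the difference was not tested. Its Ribo-seq levels were low, with 3.26 and 2.0 RPKM in Y1cKO, against 1.74 and 0.351 RPKM in Y1CTL. The last of these is below the 0.5 RPKM added to each value before the log. By RNA-seq Isca1 had 32.6 and 36.8 RPKM in Y1cKO, against 36.9 and 41.0 RPKM in Y1CTL. Read numbers of Isca1 are not given here.

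Of other mRNAs known or proposed to carry an iron-responsive element, 6 were tested. Among them 2 had a positive and 4 a negative change by Ribo-seq (median -0.25), 3 and 3 by RNA-seq (median 0.04), and 1 and 5 for TE (median -0.27). Of all genes, 48.5% were negative by Ribo-seq, 32.8% by RNA-seq and 65.3% for TE. Alas2, the erythroid enzyme that opens heme synthesis, had 9.31 and 14.8 RPKM in Y1cKO, against 25 and 13.6 RPKM in Y1CTL by Ribo-seq (log2 change -0.63, adjusted p = 1.00 from limma). Y1CTL replicate 1 was highest by Ribo-seq for Alas2 and for the median of the erythroid markers, which include Alas2. The part of erythroid content was not tested. The TE levels of Epas1, a hypoxia-inducible transcription factor subunit with a leader hairpin, and of Cdc42bpa, a kinase, were -1.0 and -2.91. Both passed the test (adjusted p = 0.000917 and 5.98e-06 from limma), as did Pfn2 at 1.63 (adjusted p = 0.000462 from limma). Of the 6 TE levels, 3 were positive and 3 negative. The test passed for 2 higher and 2 lower, where 39.6% of all genes passed higher and 33.6% lower.

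Targets of NRF2, the factor of oxidative stress that also drives Hmox1 and both ferritin chains, were set beside these genes. Of 13 tested, 10 had a positive change by RNA-seq (median 0.12), 4 by Ribo-seq (median -0.07) and 3 for TE (median -0.26). Of all genes, 67.2% were positive by RNA-seq, 51.5% by Ribo-seq and 34.7% for TE. The quinone reductase Nqo1 had 2.48 and 3.14 RPKM in Y1cKO, against 1.14 and 0.778 RPKM in Y1CTL by RNA-seq (log2 change 1.18, adjusted p = 0.402 from limma). Me1, the malic enzyme, had 2058 and 2340.3 RPKM in Y1cKO, against 2921 and 3673 RPKM in Y1CTL by Ribo-seq (log2 change -0.58, adjusted p = 1.00 from limma), the same side as Hmox1. Srxn1, next by unadjusted p in this list, went the other way by Ribo-seq (log2 change 0.33). It had 18.3 and 17.9 RPKM in Y1cKO, against 17.4 and 11.7 RPKM in Y1CTL. Prdx1, next after it, had a log2 change of -0.24. Medians of these lists stand beside the median gene at 0.17 by RNA-seq and -0.17 for TE.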

How the data were processed

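RNA-seq and Ribo-seq of iWAT gave 8 libraries, 2 per genotype and assay, grouped by their labels. After alignment by the authors to mm8 (HISAT2 2.2.1), each library was deposited as its own table of RPKM, in which RNA-seq reads are divided by transcript length and Ribo-seq reads by coding length. DESeq2 appears in the submitters' processing notes without a role. Counter, annotation release and strandedness: not given in the sources used here. Each value (100% of them) corresponded to a whole number of reads to within 0.01, and reads were recovered from it. Genes missing from a library's Ribo-seq table were set to 0. Gene symbols that were dates, empty or shared by several genes were replaced by way of the gene identifier where it had a known name (15 replaced). Of the 17264 identifiers, 17255 had a known name.

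Values were set to log2(RPKM + 0.5), so that changes of low genes are understated, and fitted in limma 3.58.1 under R 4.3.3, using its intensity trend and the genes that averaged 0.5 RPKM or more (12602 by Ribo-seq, 12435 by RNA-seq, 11792 in both). TE change was the interaction of assay and genotype over the 8 libraries. TE level was the mean over genotypes of Ribo-seq minus RNA-seq with each library set to a median of 0. Benjamini-Hochberg adjustment was made over all genes tested, and all 9 members passed the filter. No block was used. Whether same-numbered libraries pair was checked by the correlation of their deviations from the group means across genes, which was 0.05 between genotypes by Ribo-seq, -0.02 by RNA-seq, and -0.24 (Y1cKO) and -0.14 (Y1CTL) between assays, and within the RNA-seq tables of Y1cKO the column names swap replicates 1 and 2 against the labels, which were followed. The fits were tested on simulated data. A comparison of 2 libraries with 2 has no exact test that can pass 0.05.

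The members and lists were chosen with earlier results of these data known. All 9 members were described, and from each other list some of the up to 3 genes with the smallest p in each comparison. Patterns most alike were the 3 genes with the highest r to Fth1, Tfrc and Hmox1. Alternatives covered the pseudocount (0.1 and 1), the filter (none and 5 RPKM), scaling, trend, limma-voom, the replicate block, a fit of all 8 libraries and each library left out. Python 3.11.15 with pandas 2.3.3, numpy 2.4.6 and matplotlib 3.10.9 made the tables and figures.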

Additional observations from a re-analysis of the deposited data

How the results depend on the processing

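No gene was called between genotypes by limma in any fit that kept all libraries (other pseudocounts, filters, scalings, trend, limma-voom and block). With 1 library left out, where the lone library left is assumed to vary like the other groups, limma called 0 to 51 genes by Ribo-seq (51 without Y1CTL replicate 1 and 19 without Y1CTL replicate 2), 0 to 665 by RNA-seq (665 without Y1CTL replicate 1 and 52 without Y1CTL replicate 2) and 0 to 581 for TE change (581 without Y1CTL RNA-seq replicate 1). Of the 9 members, Tfrc by Ribo-seq and Trf for TE were then called, as given above, and why was not tested. For the TE level 8630 genes were called, and 5024 of the 6621 genes left at a mean of at least 5 RPKM, where fewer were tested.

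Signs near 0 turned as follows, and the causes were not tested. Slc11a2 by Ribo-seq was -0.015 with limma-voom, Hmox1 by RNA-seq -0.012 and Ireb2 for TE change 0.14 with scaled libraries. The TE level of Fth1 was -0.11 at a mean of at least 5 RPKM and -0.82 with RNA-seq per coding and trailer length. Ireb2 had a TE level of 0.34 with libraries not centred, and -0.34 with an adjusted p of 0.0619 from limma without the filter. Trf passed for TE level without the filter (0.90, adjusted p = 0.0477), without centring (1.58), and without Y1CTL RNA-seq replicate 1 (1.12), as did Fth1 without centring (1.00). With 1 library left out, log2 changes ran by Ribo-seq between -0.46 and 0.47 for Slc11a2, -0.26 and 0.031 for Ireb2, -0.37 and 0.59 for Ftl1, -0.41 and 0.15 for Slc40a1 and -0.28 and 1.24 for Tfrc. By RNA-seq they ran between -0.12 and 0.42 for Hmox1, -0.18 and 0.96 for Slc40a1 and -0.27 and 0.067 for Ireb2, and for TE change between -0.18 and 0.15 for Ireb2 and -1.09 and 0.047 for Slc40a1. At a mean of at least 5 RPKM, Slc40a1 was not tested by RNA-seq or TE.

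The replicate block changed no call of a member, with an adjusted p of 0.204 from limma for Ftl1 by RNA-seq and 8134 genes called for TE level. Pairing the assays crosswise, chosen after the data were seen, called 0 genes for TE change and 8635 for TE level. Depth limited the RNA-seq values of Slc40a1 (9 reads in 1 library) most.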
